A study of Carthamus tinctorius with 15 samples.

Results

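Gene expression in root was compared with that in stem of Carthamus tinctorius, the safflower, which is grown for seed oil and for its florets. The genes described are the rows of the expression table with an FPKM of 1 or more in 3 or more of the 6 root and stem libraries. FPKM is the read number of a gene divided by its length and by the size of the library. This rule kept 19247 of 33242 rows, and the remaining 13995 were below it. The kept genes held 99.8% of all FPKM in root and 99.8% in stem.

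The RNA-seq data used comprised 3 libraries each from root, stem, leaf and flower. The labels give each library its tissue and a replicate number, and give no cultivar, plant age or growth condition, so these cannot be stated for any of the groups. Whether libraries of 1 tissue come from different plants is not stated, and the spread that the p-values rest on may be technical. The title of the series is about oil formation in seeds, and seed libraries were not analysed here.

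A root takes up water and mineral ions in the dark and stores or passes on what the shoot sends down. A stem carries vascular tissue between root and leaf, and in a herbaceous plant its outer cells are green and photosynthesise. Both organs hold xylem, phloem and growing cells, so much of their cell machinery is shared. The table does not pair its rows with gene names or identifiers. A gene is therefore given by its row number, where row 1 is the first below the header, together with the length that its values imply, and no function can be given to any row. For the same reason the tissue labels could not be checked against marker genes. In whole organs, fewer cells of a type and less RNA per cell cannot be told apart.

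The depth that the values imply was similar in both tissues, with 26183138 to 29184532 reads a library in root and 28391416 to 30563169 in stem. Root replicate 3 stood apart for some stem genes. Among 148 genes called higher in stem that were over 50 FPKM there and under 5 FPKM in root, 110 had their highest root value in replicate 3, 21 in replicate 1 and 17 in replicate 2. Their FPKM summed to 335 in root replicate 3, against 201 in replicate 1 and 185 in replicate 2. This class was chosen after the values were seen. In the mirror class of 47 genes, high in root and low in stem, 17, 16 and 14 had their highest stem value in replicates 1, 2 and 3. What sets root replicate 3 apart was not tested, and root means without it are given for the named stem genes that it moved most.

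Most genes stood at similar levels in root and stem. A gene was called where the limma adjusted p was under 0.05 and the difference was 1 or more between the tissue means of log2(FPKM + 1), which for a well-expressed gene is a 2-fold change. Of the 19247 genes, 4075 (21.2%) were called, 1830 (9.51%) higher in root and 2245 (11.7%) higher in stem. Over all 20769 genes of the fit the background was 19.9% called, with 8.93% higher in root and 11% in stem. Differences were under 0.5 in size for 59.3% of genes and under 1 for 78.7%. Part of the calls follow from the rule itself. In all, 679 genes reached 1 FPKM in root libraries alone and 770 in stem libraries alone, and of these 556 and 675 were called, since a gene that passes through 1 tissue alone is bound to differ in some degree.

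Small differences leaned towards root and large ones towards stem. The median gene was higher in root by 0.11 on the log2(FPKM + 1) scale (quartiles -0.30 and 0.43). By limma adjusted p alone, without a threshold on size, 11958 genes (62.1%) passed, 6976 of them higher in root and 4982 higher in stem, beside 59.6% of all genes in the fit. The balance turned as the difference grew. At a difference of at least 2 there were 613 genes higher in root and 1041 higher in stem, at 4 there were 98 and 287 (98 and 294 without root replicate 3), and at 6 there were 18 and 89. Root thus held 44.9% of the calls at a difference of 1 and 16.8% at 6. Scaling by the median ratio brought the median gene to 0.04 and left 5829 genes higher in root and 5438 higher in stem by adjusted p alone. At a difference of at least 4 the counts depended on how low values were treated, with 346 genes higher in root and 623 in stem at a pseudocount of 0.1, and stem kept the larger number.

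**Figure D1:**
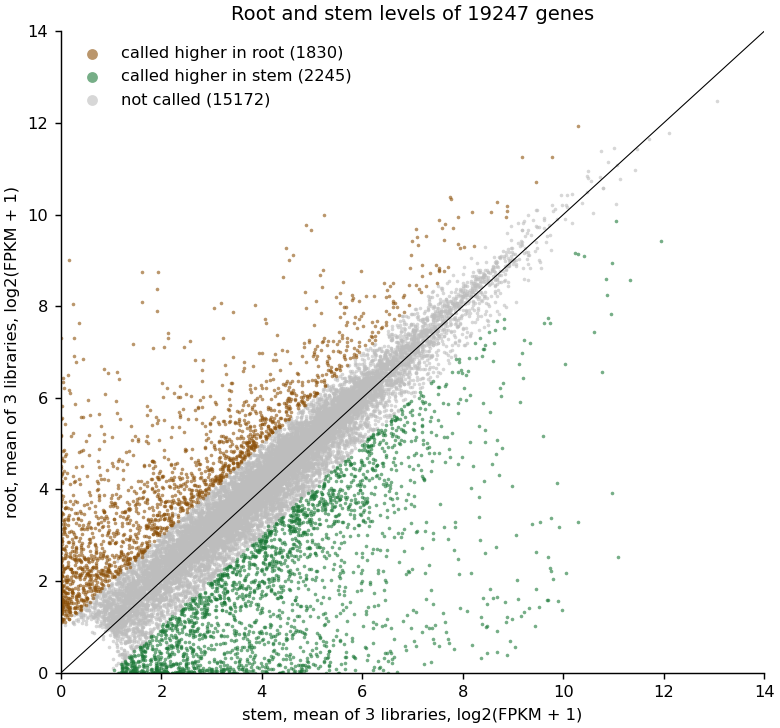
Mean level of each gene in root (y axis) against stem (x axis), both as log2(FPKM + 1) of the mean of 3 libraries. Each point is a gene, coloured by its call (1830 higher in root, 2245 higher in stem), and the line marks equal levels. Points far below the line, high in stem and near 0 in root, outnumber those far above it.

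The called genes carried an unequal weight of expression. Genes called higher in root made up 13.97% ± 0.0159 (SD, n = 3) of all FPKM in root and 3.61% ± 0.00809 in stem. Genes called higher in stem made up 3.33% ± 0.0442 of FPKM in root and 19.64% ± 0.0624 in stem. Genes that were not called held 82.5% in root and 76.6% in stem. These shares describe the calls and come from the same libraries. Among the 100 highest genes of each tissue, 53 were shared, and among the 500 highest, 346. Of the 100 highest in root, 29 were called higher in root and 2 higher in stem. Of the 100 highest in stem, 3 were called higher in root and 40 higher in stem. Of all genes described, 9.51% were called higher in root and 11.7% higher in stem. Ranking and calls use the same values, so each list leans towards its own tissue in part by the ranking.

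Calls were spread over all levels of expression. The share called was highest, at 51.05%, among the 286 genes with a mean under 1 FPKM over the 6 libraries, with 76 higher in root and 70 higher in stem. Such genes met the 1 FPKM rule in 3 or more libraries in spite of that mean, so their other libraries had to average under 1 FPKM. The rule thus favours genes that differ between the tissues in this class, and its high share follows in part from the rule. Among genes with a mean of 1 to 3 FPKM, 30.1% were called, with 379 higher in root and 348 higher in stem. In the classes of 10 to 30 and 30 to 100 FPKM, 17.6% and 17.8% were called, and stem had the larger number in both, with 449 higher in root and 643 higher in stem in the first and 288 and 419 in the second. Above 300 FPKM there were 368 genes, of which 39 were called higher in root and 48 in stem. The spread between replicates shrank with level from 1 FPKM upwards. The median SD of log2(FPKM + 1) was 0.134 in root and 0.141 in stem under 1 FPKM, 0.172 in root and 0.169 in stem at 1 to 3 FPKM, and 0.0271 in root and 0.0228 in stem above 300 FPKM.

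The genes with the largest differences towards root were close to silent in stem. Row 25636 (1026 bases) had 512, 498 and 528 FPKM in root, against 0.103, 0.168 and 0.0638 FPKM in stem. Its 43804 root reads stood against 10 stem reads, and on the log2(FPKM + 1) scale it differed by 8.85 with an SE of 0.086 (limma adjusted p = 3.24e-14). Root and stem libraries were thus far apart, with a 4589-fold ratio of mean FPKM. Row 30611 (978 bases) had 266, 262 and 262 FPKM in root and 0.108, 0.318 and 0.134 FPKM in stem. Stem replicate 2 was its highest stem library, and the stem mean of 0.187 FPKM was 0.121 without it. The difference was 7.80 (SE 0.092, limma adjusted p = 1.17e-13). Both genes were also low elsewhere, row 25636 at 2.11 FPKM in leaf and 0.0751 in flower, and row 30611 at 0.0325 in leaf and 0.0800 in flower.

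The largest differences towards stem lay between a low level in root and a high one in stem. Row 30133 (295 bases) had 0.366, 0.388 and 3.95 FPKM in root, against 1011, 1006 and 1018 FPKM in stem. Root replicate 3 was the high root library, with the other 2 below 0.4 FPKM. The difference was -8.91 (SE 0.372, limma adjusted p = 1.4e-09), and stem was 645-fold higher by mean FPKM, or 2683-fold without root replicate 3. Row 18689 (1114 bases) had 3.26, 1.68 and 9.38 FPKM in root and 2193, 2143 and 2194 FPKM in stem. Its 3 stem libraries were close to each other, and root replicate 3 was again the highest of root. The difference was -8.79 (SE 0.353, limma adjusted p = 1e-09), with stem 456-fold higher, or 881-fold without root replicate 3. Leaf held still more of both transcripts, with 4265 ± 23.4 FPKM of row 30133 and 4051 ± 23.8 of row 18689 (SD, n = 3), and flower held 35.4 and 77.5 FPKM.

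The 2 most abundant genes called in each direction were strong in both tissues. Row 3108 (441 bases) had 3871, 3925 and 3913 FPKM in root and 1281, 1244 and 1241 FPKM in stem. It was 3.11-fold higher in root by mean FPKM, with a limma adjusted p = 4.5e-06 for its difference of 1.64 (SE 0.167). Row 5285 (468 bases) had 2383, 2525 and 2406 FPKM in root and 565, 583 and 579 FPKM in stem. That was 4.23-fold higher in root (difference 2.08, SE 0.054, limma adjusted p = 2.17e-11). The root and stem libraries of both genes were well apart, and both were lower again in leaf, at 483 and 265 FPKM.

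Higher in stem, row 17054 (150 bases) had 654, 672 and 727 FPKM in root and 3912, 4009 and 3907 FPKM in stem. Its difference was -2.53 (SE 0.142, limma adjusted p = 2.11e-08), which is 5.76-fold higher in stem. Row 25400 (835 bases) had 374, 381 and 376 FPKM in root and 2619, 2506 and 2609 FPKM in stem, 6.84-fold higher in stem (difference -2.77, SE 0.064, limma adjusted p = 9.95e-12). Both were lower in leaf than in stem by their means. Row 17054 was at 1575 ± 37.6 FPKM in leaf and 1806 ± 449 in flower, and row 25400 at 1460 ± 21.5 in leaf and 3038 ± 329 in flower (SD, n = 3), above its stem level.

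The 2 genes with the highest mean over the 6 root and stem libraries were not called. Row 26099 (158 bases) had 6376, 5535 and 5231 FPKM in root and 7784, 10130 and 7657 FPKM in stem. Its 3 root libraries lay below the 3 stem libraries, with a difference of -0.57 (SE 0.118, limma adjusted p = 0.00137) that was under the size threshold. Stem replicate 2 was highest, and the stem mean without it was 7721 FPKM. Row 5282 (183 bases) had 3485, 3556 and 3442 FPKM in root and 4311, 4450 and 4430 FPKM in stem, with a limma adjusted p = 3.66e-06 for its difference of -0.33 (SE 0.033). Both therefore passed the adjusted p and not the size.

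**Figure D2:**
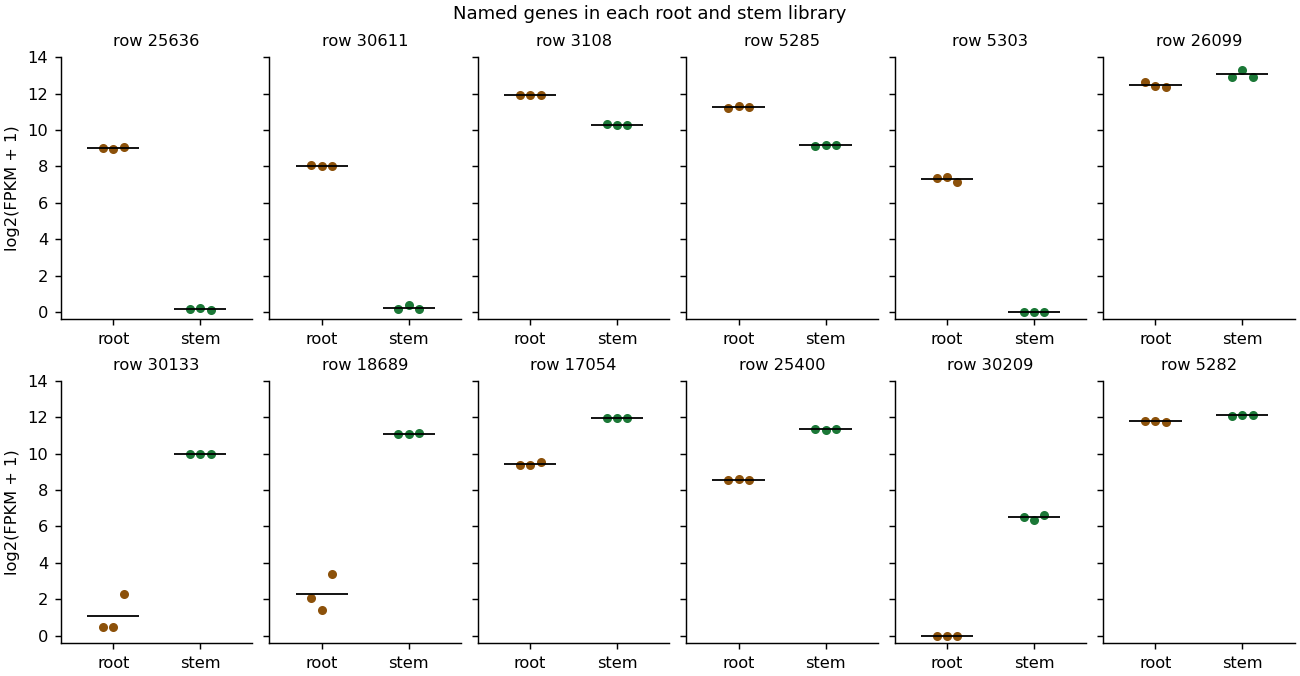
Level of 12 genes in each root (left) and stem (right) library, as log2(FPKM + 1), with points for libraries in order of replicate and a line at the mean of the 3. Libraries of a tissue lie close together except for root replicate 3 of rows 30133 and 18689.

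Some genes had reads in 1 of the tissues alone. With at least 10 reads in each of its 3 libraries and 0 in all 3 of the other tissue, 127 genes were read in root and not in stem, and 104 in stem and not in root. Of these, 61 and 59 reached the 1 FPKM needed to be among the genes described. Most were low, with a median of 1.27 FPKM in root and 1.78 FPKM in stem, and 12 of the root genes and 15 of the stem genes were over 10 FPKM. By these counts alone, the lists differed in leaf. Of the 127 genes read in root, 79 had no read in leaf and 64 none in flower, and 47 had none in either. Of the 104 genes read in stem, 2 had no read in leaf, 22 none in flower and 1 none in either. These counts include the genes below the 1 FPKM rule. The share of all genes with no read in leaf or flower was not counted, so no background stands beside them.

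The highest of them were far above the counting limit. Row 5303 (909 bases) had 160, 168 and 142 FPKM in root and 0 reads in all 3 stem libraries. Against the 3 reads that a count of 0 allows over the stem libraries together, it was at least 4175-fold higher in root. Its leaf and flower libraries held 7 and 5 reads in all. Row 30209 (246 bases) had 0 reads in all 3 root libraries and 91.2, 81.7 and 97.2 FPKM in stem, which was at least 614-fold higher in stem by the same limit over the root libraries. It was higher still in leaf, at 140 ± 5.67 FPKM, and at 16.5 ± 1.75 in flower (SD, n = 3). Such limits cover counting error only.

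Genes called higher in stem had their highest mean more often in leaf than in stem. Of these 2245 genes, 1144 (50.96%) had their highest mean of the 4 tissues in leaf, 658 (29.3%) in stem and 443 (19.7%) in flower, beside 21.6%, 17.01% and 20.9% of all genes described. By the median they stood at 2.49 FPKM in root and 19.6 in stem, at 30.7 in leaf and at 5.91 in flower. The share highest in leaf grew with the size of the difference, from 44.0% of the 1204 genes at 1 to 2 through 54.6% of 754 at 2 to 4 to 70.4% of 287 at 4 or more. In this last class root had a median of 0.656 FPKM and stem one of 74.0, with 168 in leaf and 7.35 in flower. These shares are descriptions, and genes called higher in stem could not have had their highest mean in root.

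Genes called higher in root were mostly highest there. Of these 1830 genes, 1402 (76.6%) had their highest mean in root, 376 (20.5%) in flower and 52 (2.84%) in leaf. Root was also highest for 40.4% of all genes described and for 42.1% of those not called, and choosing genes above stem in root raises this share by itself. By the median they stood at 14.8 FPKM in root and 2.71 in stem, at 2.10 in leaf and at 1.96 in flower. Leaf was under 1 FPKM for 713 (39.0%) of them, against 5.08% of the genes called higher in stem and 7.46% of all genes described. Flower was under 1 FPKM for 786 (43.0%), against 28.9% of the genes called higher in stem and 21.02% of all. At a difference of 4 or more, 87 of 98 genes were highest in root, and 11 were highest in flower.

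**Figure D3:**
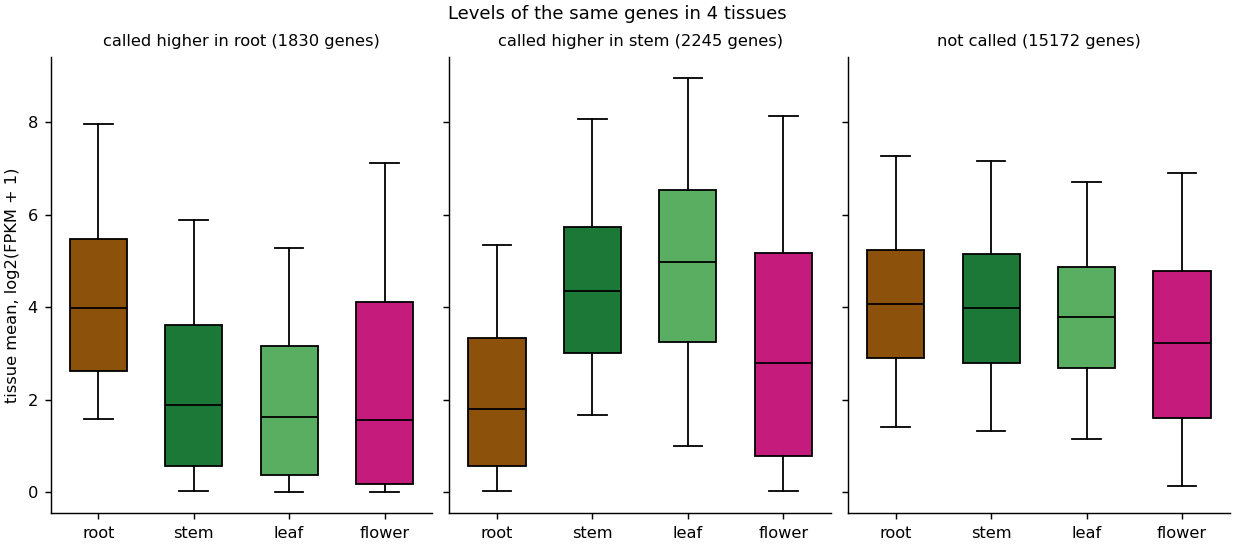
Tissue means of genes called higher in root, called higher in stem and not called, as log2(FPKM + 1) in root, stem, leaf and flower. Boxes give the median and quartiles over genes and whiskers the 5th and 95th percentiles. Genes called higher in stem have their highest median in leaf, and genes called higher in root are low in the other 3 tissues by the median.

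No root or stem library enters the means of leaf and flower, while the estimate of spread behind both contrasts is shared by all 12 libraries. By limma, 37.1% of all genes in the fit were called higher in leaf than in flower, and 18.6% higher in flower than in leaf. Among genes called higher in stem, 1326 (59.1%) were called higher in leaf and 336 (14.97%) higher in flower, and the median difference of leaf minus flower was 1.61 on the log2(FPKM + 1) scale. Among genes called higher in root, 422 (23.1%) were called higher in leaf and 606 (33.1%) higher in flower, with a median of -0.04. The 15172 genes that were not called had 36.4% higher in leaf, 14.1% higher in flower and a median of 0.52. By size of the difference between root and stem (1 to 2, 2 to 4, and 4 or more), 54.1%, 60.1% and 77.4% of the genes higher in stem were called higher in leaf than in flower, with medians of 1.21, 1.83 and 4.06. Of the genes higher in root, 27.9%, 14.2% and 9.18% were called higher in leaf. Their share called higher in flower was 30.1%, 40.2% and 33.7% and their median 0, -0.40 and -0.06, which did not move steadily with size. Levels changed with size too. Among genes higher in root, leaf was under 1 FPKM for 30.7%, 52.6% and 69.4%, and flower for 42.9%, 40.8% and 55.1%. A gene under 1 FPKM in both cannot reach a difference of 1. Genes higher in stem had leaf medians of 17.5, 38.7 and 168 FPKM. The part that level plays in these shares was not tested.

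Calls in the same direction were most frequent, by their shares, in adjacent rows of the table. Of 13014 pairs of neighbouring rows that both met the 1 FPKM rule, 227 were both called higher in root, 242 both higher in stem and 225 in opposite directions. Where a gene was called higher in root, the next row was also called higher in root in 19.9% of 1141 cases. Beside this stood 9.51% of all genes described and 8.93% of all genes in the fit. Where it was called higher in stem, the next row was too in 16.6% of 1457 cases, beside 11.7% of all genes described and 11% of those in the fit. For rows 2 places apart these shares were 15.3% for root and 11.6% for stem. Over 2 to 20 places they averaged 11.05% and 11.9%, and at 20 places, the lowest for root, they were 8.58% and 11.02%. The sources used here do not say what orders the rows, and reads split between near-identical neighbours were not tested.

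**Figure D4:**
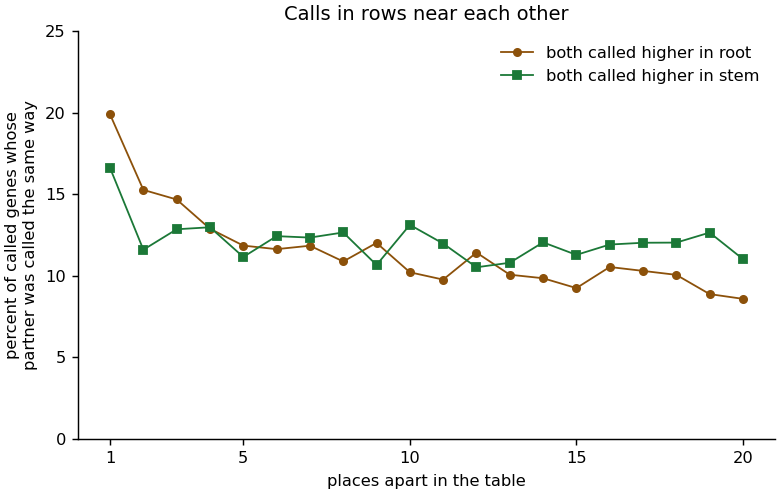
Share of genes called higher in root (circles) or in stem (squares) whose partner a given number of places further down the table was called in the same direction, in percent, for 1 to 20 places. Both shares are highest for the next row, at 19.9% for root and 16.6% for stem.

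The longest run of consecutive rows called higher in root held 8 genes, rows 30566 to 30573. Summed over the run, the libraries held 1011, 998 and 1016 FPKM in root and 73.8, 80.5 and 75.2 FPKM in stem. All 3 root libraries were thus far above the stem libraries. The 8 differences ran from 1.83 to 6.82, with a limma adjusted p of at most 2.15e-06. Row 30566 (351 bases) had 156, 153 and 163 FPKM in root and 5.82, 10.3 and 8.95 FPKM in stem. Row 30568, also of 351 bases, had 147, 140 and 146 FPKM in root and 1.81, 1.58 and 1.77 FPKM in stem. The strongest was row 30572 (1191 bases), with 433, 426 and 433 FPKM in root and 2.93, 3.22 and 2.33 FPKM in stem, a 152-fold ratio of mean FPKM.

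The rest of the run ranged widely in level. Row 30567 (405 bases), row 30569 (729 bases) and row 30571 (723 bases) averaged 3.25, 7.34 and 10.4 FPKM in root, and over the 3 stem libraries they had 2, 3 and 0 reads. Row 30573 (992 bases) averaged 221 ± 2.47 FPKM in root and 61.6 ± 1.66 in stem (SD, n = 3), and had 41.0 FPKM in leaf and 0.0552 in flower. Row 30570 (414 bases) averaged 33.6 ± 2.83 FPKM in root and 1.91 ± 0.690 in stem, with 14.02 ± 1.46 in leaf and 29.1 ± 14.8 in flower (SD, n = 3). The other 6 genes were at no more than 1.14 FPKM in leaf and 0.580 in flower.

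The longest run called higher in stem held 6 genes, rows 14513 to 14518. Summed over the run, the libraries held 4.60, 4.43 and 10.1 FPKM in root and 1260, 1241 and 1240 FPKM in stem. Root replicate 3 was the highest root library and was still far below every stem library. The differences ran from -2.67 for row 14513 to -8.23 for row 14518, with a limma adjusted p of at most 3.21e-08. Row 14518 (945 bases) had 0.571, 0.162 and 4.21 FPKM in root and 632, 641 and 629 FPKM in stem. Its root mean of 1.65 FPKM was 0.366 without root replicate 3, so that stem was 385-fold higher with that library and 1731-fold without it.

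The other 5 genes of that run were also low in root. Row 14517 (816 bases) averaged 0.430 ± 0.479 FPKM in root (0.162 without replicate 3) and 226 ± 11.5 in stem, which was 526-fold higher in stem, or 1392-fold without root replicate 3. For row 14516 (2235 bases) these means were 0.266 ± 0.288 FPKM in root (0.1 without replicate 3) and 97.9 ± 2.52 in stem (SD, n = 3), a fold of 368, or 979 without that library. Row 14515 (2345 bases) averaged 0.959 ± 0.0231 FPKM in root and 125 ± 2.08 in stem, and its 3 root libraries were even. Row 14514 (795 bases) averaged 0.860 ± 0.477 FPKM in root (0.687 without replicate 3) and 145 ± 5.61 in stem. For row 14513 (331 bases) the means were 2.21 ± 0.382 FPKM in root and 19.4 ± 1.59 in stem. All 6 genes were higher in leaf than in stem by their means, from 86.9 FPKM for row 14513 to 2261 for row 14518, and at most 3.66 FPKM in flower. The sum of the run was 3856, 3850 and 3894 FPKM in leaf.

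**Figure D5:**
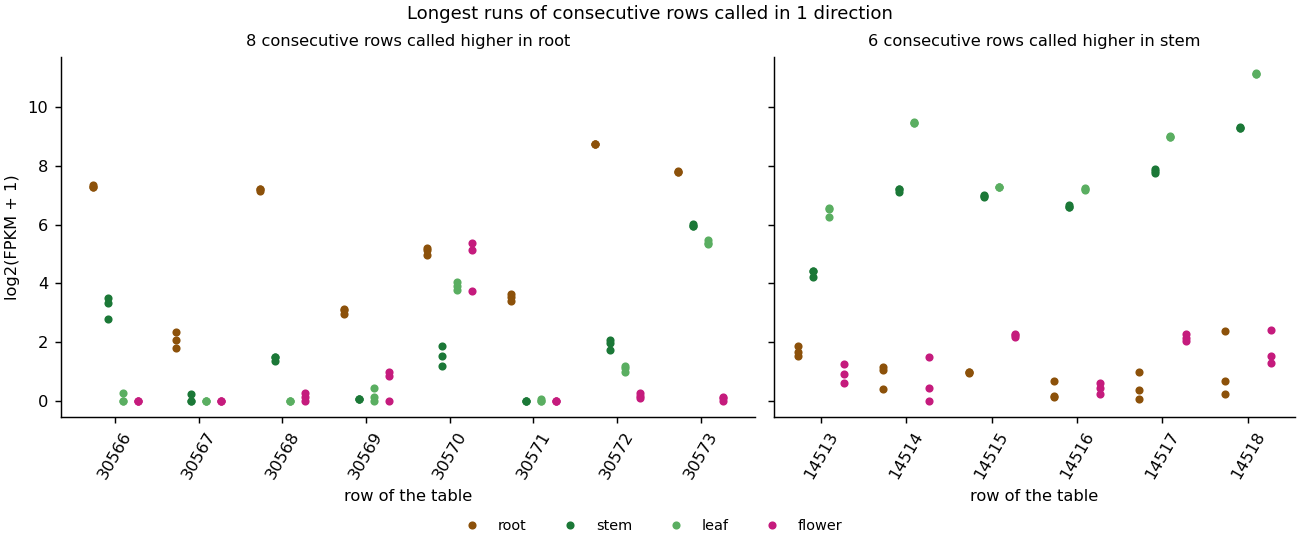
Level of each gene of both runs in every library, as log2(FPKM + 1), in root, stem, leaf and flower. In rows 30566 to 30573 root is highest in all but row 30570, where 2 flower libraries lie among or above the root ones, and in rows 14513 to 14518 stem and leaf stand above root and flower.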

How the data were processed

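RNA-seq of root, stem, leaf and flower was used. TRIzol RNA went into VAHTS Universal V6 libraries, per the labels' protocols. The authors deposited FPKM in a table of 33242 rows and 12 columns, each column matched to a library by its title. R 3.2.0, HTSeq, HISAT2 and fastp appear in the submitters' processing notes, with no role stated. Genome build, annotation and strand setting: not given in the sources used here. How reads of near-identical or overlapping genes were assigned is not given either, so the levels of such genes are uncertain. Seed libraries (3 samples) were not analysed here.

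Library totals and gene lengths were recovered by finding what turns FPKM into whole reads, within 0.01 reads, which worked for 26625 of 26625 rows above 0. For rows of few reads the recovered length may be too small.

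The values log2(FPKM + 1) of 12 libraries were modelled in limma 3.58.1 (R 4.3.3), with a mean per tissue and a mean-variance trend (8 residual degrees of freedom), over the 20769 genes that had 1 FPKM or more in 3 or more libraries. P-values were adjusted by Benjamini-Hochberg over these genes. Differences are root minus stem, or leaf minus flower, and understate the change of low genes. Named genes are, per direction, the 2 largest differences, the 2 highest levels, the highest gene read in 1 tissue alone and the longest run of called rows, plus the 2 highest genes overall. The genes, classes, lists and tests were chosen with earlier results of these data known. Alternatives were another pseudocount, filter, scaling, set of libraries, fold threshold and a limma voom fit to recovered reads. Figures were drawn with matplotlib 3.10.9.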

Additional observations from a re-analysis of the deposited data

How the results depend on the processing

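Calls kept their direction under every alternative run, and none of the 4075 called genes was called in the opposite direction. With the size threshold unchanged, the 26 named genes kept direction and call in all 362 values under alternatives. In part this was fixed in advance. The differences were the same with no filter, with root and stem alone, with replicate number as a block and without flower replicate 1. There only the adjusted p could move. A mean of at least 5 FPKM only selected among the main calls. Rows 30567 and 30569 had no value at a mean of at least 5 FPKM. At a difference of at least 2, rows 3108, 30567 and 30573 were no longer called. With no size threshold, rows 26099 and 5282 passed. As extremes the named genes say little about other genes. Leaving out 1 root or stem library gave 4065 to 4114 calls, 1832 to 1859 higher in root and 2233 to 2273 higher in stem. Counts moved more with median-ratio scaling (1626 in root and 2298 in stem), a pseudocount of 0.1 (2192 and 2525) and limma voom (2243 and 2556). With the replicate number as a block, 4081 genes were called, 4073 of them as before. Same-numbered root and stem libraries did not deviate together (correlations 0.018, -0.0018 and -0.042). Whether the numbers pair the samples is not stated. These correlations cannot decide it, since organs of the same plant need not deviate together. A mean of at least 5 FPKM kept 14915 of the 19247 genes, with the adjusted p of the main fit. Of these, 1185 were called higher in root and 1614 higher in stem. With a difference of at least 2 there were 1654 calls (613 in root, 1041 in stem), and with no size threshold 11958 (6976 and 4982). At a difference of 4 or more, a pseudocount of 0.1 gave 346 genes in root and 623 in stem, and limma voom 439 and 707. These counts, and those by adjusted p alone under other settings, were added after the values were seen.

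The share of genes higher in root that were called higher in leaf than in flower was 33.6% with a pseudocount of 0.1, 29.96% at a mean of at least 5 FPKM and 19.0% with median-ratio scaling, and higher in flower 36.5%, 36.4% and 38.5%. For genes higher in stem, the share higher in leaf was 61.9%, 61.8% and 53.7%, and with median-ratio scaling the share higher in flower was 19.1%. For rows 2 to 20 places apart, the share called in the same direction averaged 11.05% for root and 11.9% for stem. With rows under the 1 FPKM rule kept, the shares were 12.4% for root and 10.8% for stem in the next row, 9.23% and 7.35% at 2 places, and 5.03% and 6.73% at 20. Of recovered reads, genes higher in root held 13.2% in root and 3.57% in stem, and genes higher in stem 19.1% in stem. With at least 5 reads, 194 genes were read in root and not in stem and 150 in stem and not in root, and with at least 20 reads, 93 and 65. The cause of these shifts was not tested.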

Other observations

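Calls were fewer among long genes. Of 1831 genes of 3000 bases or more, 12.6% were called (126 higher in root and 105 higher in stem), against 25.2% of 3967 genes of 1000 to 1500 bases (432 and 569) and 20.1% of 2877 genes under 500 bases (267 and 310). Long genes were the only length class with more calls in root than in stem, and their median difference of root minus stem was 0.23, against 0.06 at 1000 to 1500 bases. Their median level over the 6 libraries was 11.2 FPKM, against 15.2 FPKM at 1000 to 1500 bases. Lengths were recovered from the values, and whether level or annotation plays a part was not tested.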
